A study of Sus scrofa with 6 samples.

Results

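The let-7 family of newborn pig liver was described from the 6 rows of a miRNA microarray that carry the names ssc-let-7a, ssc-let-7c, ssc-let-7e, ssc-let-7f, ssc-let-7g and ssc-let-7i. They were taken by name, with earlier results of these data known, out of 236 rows named for a pig miRNA. The study compared Large White (LW) pigs, used as the control, with Erhualian (EHL) pigs, an indigenous Chinese breed. Liver RNA came from newborn male piglets, 6 of each breed from 3 litters, and each array was hybridized with RNA pooled from 2 littermates, which gave 3 LW arrays and 3 EHL arrays. The pools hide the difference between littermates, and litter and array cannot be told apart. The piglets came from neighbouring breeding farms, and which breed was kept on which farm is not given in the sources used here.

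The let-7 miRNAs share the same seed, the stretch near the 5′ end that pairs with target mRNAs. They are low in early embryos and rise as cells differentiate, and the RNA-binding proteins LIN28A and LIN28B block their maturation. Their known targets include mRNAs of growth and cell cycle genes such as MYC, RAS genes and HMGA2, and in liver the LIN28 and let-7 axis takes part in growth and in glucose metabolism.

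The values were background-subtracted, normalized fluorescence signals of 1 dye, with some cells left blank. All 6 members had a value on all 6 arrays, as did 96 of the 236 named rows. The liver origin of the RNA was looked at through marker miRNAs. The hepatocyte miRNA miR-122 had signals between 18287 and 28071 and miR-192 between 3640 and 5592, while the row of miR-194 was blank on all 6 arrays. Of the muscle miRNAs, miR-1, miR-206 and miR-133a-5p were blank on all 6 arrays and miR-133a-3p was listed on 3 of them, at 14 to 17. A blank does not show that a miRNA was absent from the RNA, since weak hybridization can also leave a row blank. In a bulk sample, fewer cells of a type and less RNA per cell cannot be told apart. Over the 96 fully listed rows, the arrays had median log2 signals from 7.54 to 7.77. Precision was limited by having 3 arrays for each breed.

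In the gene table used, let-7a and let-7f have 2 genes each, which a probe for the mature miRNA does not tell apart. The let-7a and let-7f genes lie partly in a shared cluster with let-7d, and a second let-7a gene neighbours miR-100 and miR-125b within 100 kb. The signal of let-7a was 1224, 1647 and 2303 on LW arrays 1, 2 and 3, and 1409, 1834 and 746 on EHL arrays 1, 2 and 3. Its highest value was on an LW array and its lowest on EHL array 3, with the remaining values of the breeds interleaved. EHL minus LW was -0.42 on the log2 scale (standard error 0.38, 95% interval -1.29 to 0.44, limma adjusted p 0.727; exact permutation p 0.5). Without EHL array 3 the difference was -0.05.

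The signal of let-7f, which differs from let-7a outside the seed, was 374, 645 and 811 on the LW arrays and 438, 476 and 139 on the EHL arrays. EHL array 3 stood far below the other 5 arrays, LW array 1 was the next lowest, and the breeds overlapped. The log2 difference was -0.92 (standard error 0.49, 95% interval -2.03 to 0.20, limma adjusted p 0.505; exact permutation p 0.3), the lowest of the 6. It was -0.35 without EHL array 3. Without EHL array 1 it was -1.17 and passed the threshold of 0.15 (limma adjusted p 0.112, within a range of 0.112 to 0.976 over the alternatives), in a fit that called 24 of 97 rows.

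The let-7c gene neighbours miR-99a. Its signal was 674, 883 and 1395 on the LW arrays and 685, 1046 and 349 on the EHL arrays. As for let-7a, LW array 3 was highest and EHL array 3 lowest, and the breeds overlapped. The log2 difference was -0.58 (standard error 0.43, 95% interval -1.55 to 0.40, limma adjusted p 0.645; exact permutation p 0.5), and -0.15 without EHL array 3.

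The let-7e gene lies beside miR-99b and miR-125a. Its signal was 216, 249 and 267 on the LW arrays and 266, 498 and 197 on the EHL arrays. The LW arrays lay close together, with an SD of 0.16 on the log2 scale against 0.68 in EHL, and the EHL arrays held both the highest and the lowest value. It was the only member with a mean above that of LW, by 0.29 on the log2 scale (standard error 0.35, 95% interval -0.51 to 1.08, limma adjusted p 0.833; exact permutation p 0.8). The sign turned to -0.087 without EHL array 2.

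The gene of let-7g has a miR-135 gene within 100 kb, whose row was blank, and that of let-7i has no miRNA gene within this distance in the gene table used. The signal of let-7g was 162, 361 and 346 on the LW arrays and 332, 265 and 206 on the EHL arrays. That of let-7i was 91, 165 and 147 on the LW arrays and 149, 150 and 81 on the EHL arrays. For both, LW array 1 and EHL array 3 held the 2 lowest values, and the breeds overlapped. The log2 differences were -0.05 for let-7g (standard error 0.36, 95% interval -0.87 to 0.76) and -0.10 for let-7i (standard error 0.35, 95% interval -0.88 to 0.69), with a limma adjusted p of 0.974 for each. Their sign was reversed without LW array 2 (0.15 and 0.08) and without EHL array 3 (0.12 and 0.20), and for let-7g also without LW array 3 (0.12).

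**Figure D1:**
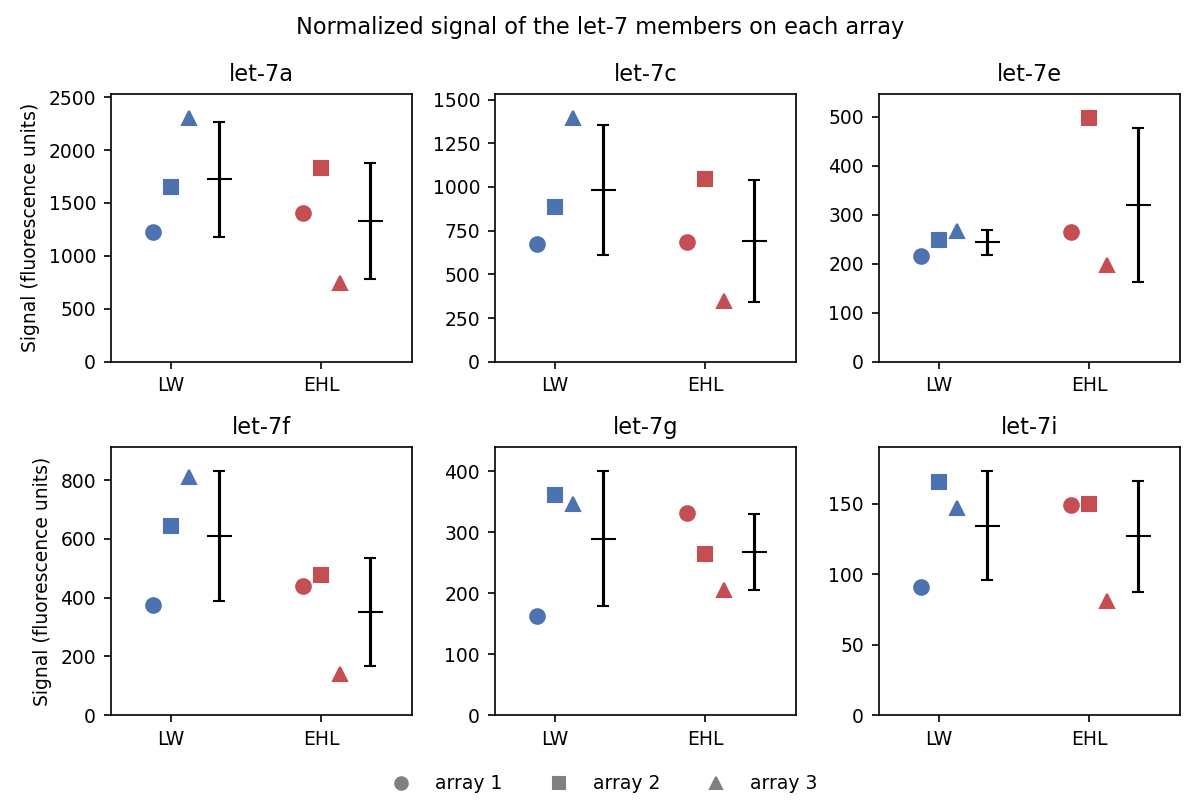
Normalized signal of each let-7 member in fluorescence units, on a linear axis starting at 0, for LW (blue) and EHL (red); each symbol is 1 array and the black bars are mean ± SD of 3 arrays. LW array 1 and EHL array 3 hold the lowest value of their breed in all 6 panels, and the breeds overlap in each.

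By limma 0 of the 6 members were called at an adjusted p under 0.15, against 1 of the 109 rows tested, or 0.917%. At an unadjusted p under 0.05 there were 0 members and 13 of the 109 rows, and SAM called 0 members, against 13 of the 96 fully listed rows, or 13.5%. Without EHL array 1, limma called 1 member, let-7f, and 24 of the 97 rows then tested, or 24.7%, so that 1 of 6 is near the share over all rows. The breeds overlapped for all 6 members, while they did not overlap for 18 of the 96 fully listed rows, or 18.8%. An exact test of 3 arrays against 3 cannot give a two-sided p below 0.1.

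The median log2 difference of the members was -0.26, with 5 below 0 and 1 above, and that of all 109 rows was 0.02, with 53 below and 56 above. No p is given for the median. Without LW array 2 or without EHL array 3, 3 members were below 0 and 3 above, without LW array 3 the counts were 4 and 2, and without EHL array 2 all 6 were below. Each of the 4 scalings tried moved the median of the rows downward, so that none put the count of 5 to a test. Centring on listed rows moved the median of all rows to -0.25 and that of the members to -0.54, with let-7e at 0.0025, and quantile normalization over all named rows moved them to -0.26 and -0.53, with let-7e at 0.16. Without EHL array 3 the median of the members was 0.03.

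**Figure D2:**
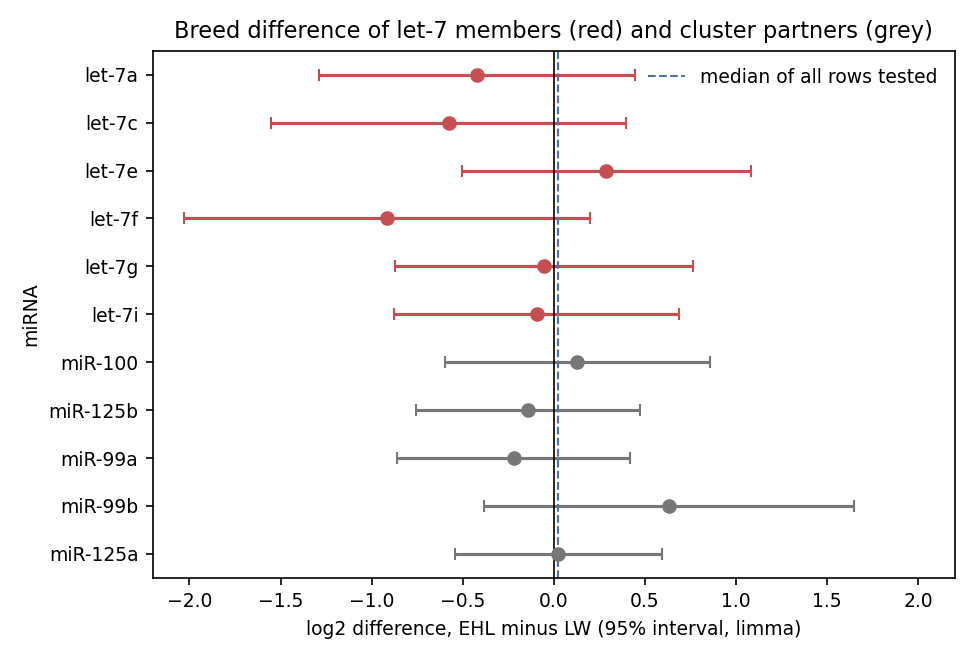
Difference of mean log2 signal, EHL minus LW, for the 6 let-7 members (red) and the 5 tested cluster partners (grey), with 95% limma intervals; the dashed line is the median of the 109 rows tested, 0.02. Every interval of the 11 miRNAs includes 0, and the signs of let-7e, let-7g and let-7i turned when single arrays were left out.

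By SD pooled over the breeds, the members varied more between arrays than most rows did. The median pooled SD of their log2 signals was 0.55, against 0.34 over all rows tested, and each of the 6 lay above that median. In single breeds, let-7e in LW (SD 0.16) and let-7g in EHL (SD 0.34) lay below the medians of all rows, 0.27 and 0.37. By pooled SD they ranked 8 (let-7f), 11 (let-7c), 18 (let-7a), 22 (let-7g), 26 (let-7e) and 27 (let-7i) among the 96 fully listed rows. The highest array was 5.83 times the lowest for let-7f and 2.04 times for let-7i.

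This spread had the same arrays at its low end in every member. Each of the 6 was lowest of its breed on LW array 1 and on EHL array 3, a pattern noticed after the values had been seen. Of the other 90 fully listed rows, 12, or 13.3%, were lowest on both, 25 were lowest of LW on array 1 and 19 were lowest of EHL on array 3. The median deviation of the members from the mean of their breed was -0.50 on LW array 1 and -0.66 on EHL array 3 on the log2 scale, while that of the other rows was 0.10 and 0.12. Of the 12 rows, miR-21 (-1.99 and -1.90), miR-215 (-1.18 and -1.53) and miR-424 (-0.59 and -1.21) lay below these member medians on both arrays. The rest of the 12 did not, and a fall on both arrays was not particular to the members. On LW array 3 and EHL array 2 the members stood above their breed, by a median of 0.40 and 0.60, with the other rows at -0.06 and -0.01. The members are related sequences on the same arrays and are not independent replicates of this pattern.

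**Figure D3:**
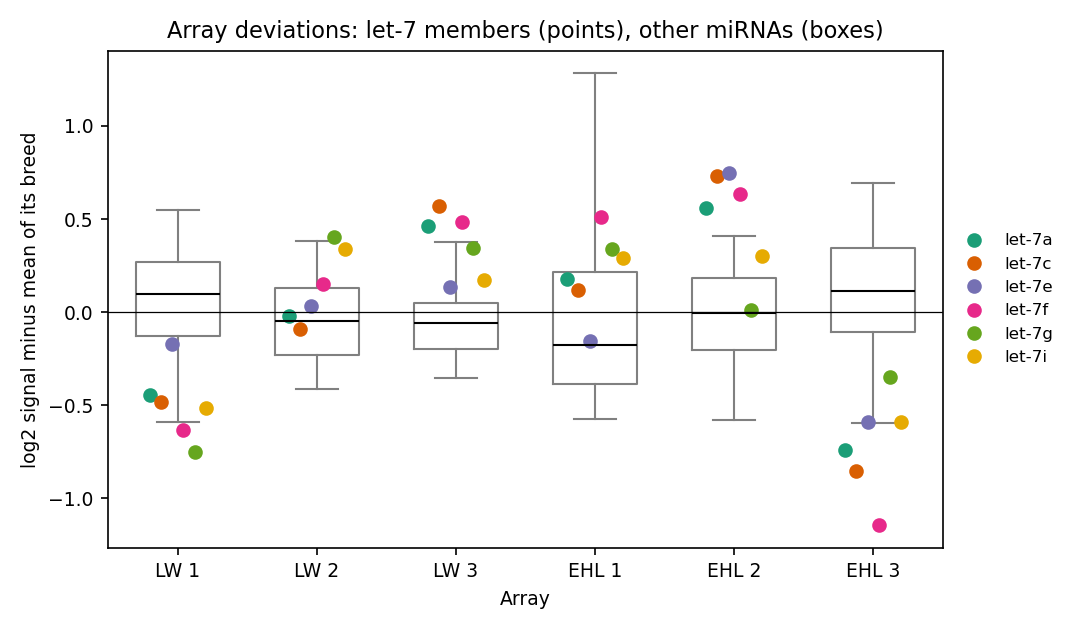
Log2 signal on each array minus the mean of its breed, for the 6 let-7 members (points) and the other 90 fully listed miRNAs (boxes with median and quartiles, whiskers from the 5th to the 95th percentile). All 6 points lie below 0 on LW array 1 and on EHL array 3, where the median of the other miRNAs is 0.10 and 0.12. Some of the other miRNAs, such as miR-21 (-1.99 and -1.90), fell further on both.

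Marker miRNAs of other cell types were read on the same arrays. The 9 rows of stellate cell and fibroblast miRNAs, with miR-214 brightest on the mean of the 6 arrays and miR-199a* brightest in LW, summed to 6889, 6999 and 5964 on the LW arrays and 5239, 7980 and 5600 on the EHL arrays. The rows of that list did not share an order: miR-199a-3p was lowest of its breed on LW array 1 and EHL array 3, while miR-199a was highest of its breed on both. The hepatocyte rows, led by miR-122, summed to 33001, 24963 and 28822 in LW and 28497, 24316 and 24137 in EHL. Most of that sum was miR-122, and the other listed hepatocyte rows had another order, with miR-148a lowest of LW on array 1 (824) and miR-192 lowest of EHL on array 2 (3640). The endothelial miR-126 was at 2209, 4098 and 3436 in LW and 4524, 3110 and 3506 in EHL, lowest on LW array 1 as the members were, but not on EHL array 3. The erythroid rows miR-451 and miR-486 summed to 249, 124 and 159 in LW and 410, 78 and 85 in EHL. The leukocyte miR-155 was blank and miR-142 was listed at 12 on EHL array 3 alone, and the table used had no row for miR-144, miR-150 or miR-223. Among the tested rows of these lists limma called 0, with 0 also at an unadjusted p under 0.05. The part of these cell types in the let-7 values was not tested.

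Among the members, let-7a gave the highest signal, let-7c the next and let-7i the lowest on all 6 arrays. Probes differ in how they hybridize, and near-identical members may bind each other's probes, so this order of signals is not one of abundance. The order of let-7e, let-7f and let-7g was not fixed. Their signals were 216, 374 and 162 on LW array 1, where let-7f was brightest, and 197, 139 and 206 on EHL array 3, where it was dimmest.

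Ratios of members on the same array, which a scaling of the whole array does not touch, were compared between the breeds for all 15 pairs. The breeds did not overlap for 4 pairs, or 26.7%, against 865 of the 4560 pairs of fully listed rows, or 19.0%. These 4 pairs are named because they did not overlap, 3 of them contain let-7e, and pairs that share a member are not independent. The exact permutation p ranged from 0.1 to 0.8 and, adjusted over the 15 pairs, from 0.333 to 0.8, so that none passed the threshold of 0.15.

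The log2 ratio of let-7e over let-7f was -0.79, -1.37 and -1.60 on the LW arrays and -0.72, 0.07 and 0.50 on the EHL arrays. The lowest EHL value lay just above the highest LW value, and the means differed by 1.21. The log2 ratio of let-7c over let-7e was 1.64, 1.83 and 2.39 in LW and 1.36, 1.07 and 0.83 in EHL, a difference of -0.86. The highest EHL value lay under the lowest LW value. The log2 ratio of let-7a over let-7e was 2.50, 2.73 and 3.11 in LW and 2.41, 1.88 and 1.92 in EHL, a difference of -0.71, with EHL array 1 close to LW array 1. The log2 ratio of let-7f over let-7i was 2.04, 1.97 and 2.46 in LW and 1.56, 1.67 and 0.78 in EHL, a difference of -0.82, with EHL array 3 lowest. Each of these differences had an exact permutation p of 0.1, the smallest possible, and an adjusted p of 0.333. With 3 arrays against 3, breeds that do not overlap always give this exact p, so it repeats the choice of the pairs.

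**Figure D4:**
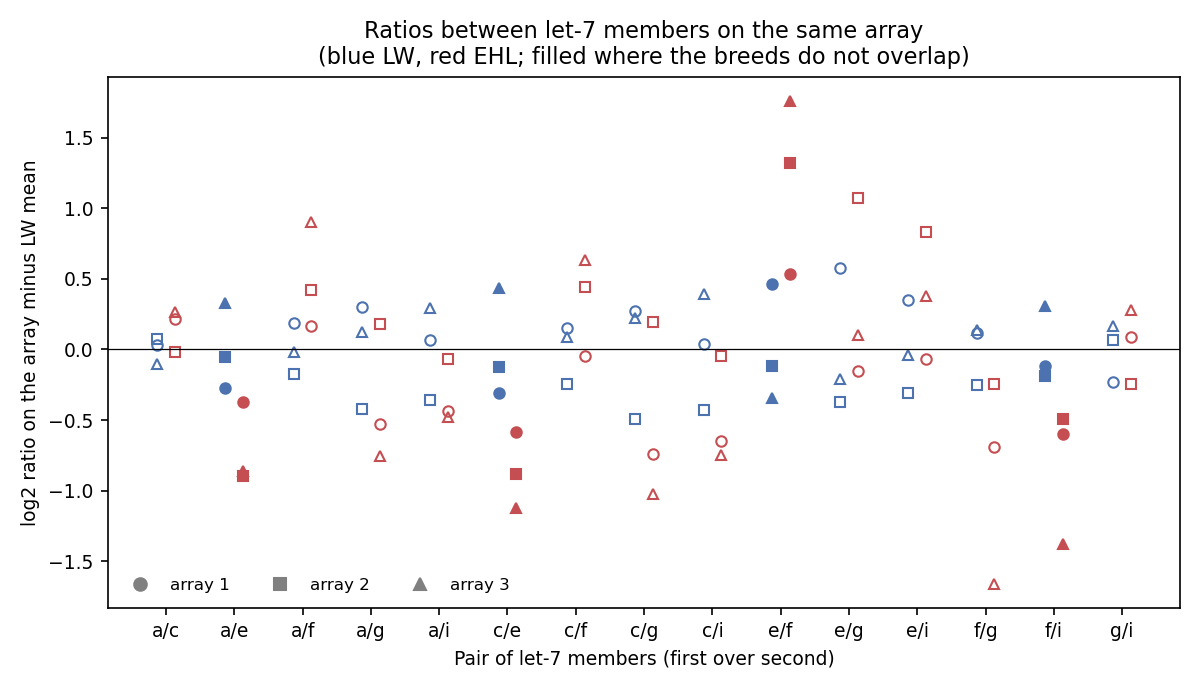
Log2 ratio of 2 let-7 members on the same array, minus the LW mean of that ratio, for all 15 pairs; blue symbols are LW arrays, red symbols EHL arrays, and symbols are filled for the pairs whose breeds do not overlap. The 4 filled pairs are let-7a over let-7e, let-7c over let-7e, let-7e over let-7f and let-7f over let-7i.

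By the course of the log2 signal over the 6 arrays, each row taken around its own mean, let-7a and let-7c were the closest members, with a root mean square difference of 0.13, followed by let-7g and let-7i with 0.20. The farthest apart were let-7e and let-7f, with 0.74. The 5 other named rows closest to the mean course of the members were miR-199a-3p (0.28), miR-199b* (0.32), miR-195 (0.33), miR-199a* (0.38) and miR-23a (0.40). The members themselves, which enter that mean, lay between 0.11 for let-7a and 0.39 for let-7f, and the median of the other 90 rows was 0.64. A row with the same signal on all 6 arrays would lie at 0.47, so that miR-199a* and miR-23a, whose highest array was 1.57 and 1.44 times the lowest, were only slightly closer than a flat row. The highest array of miR-195 was also only 1.6 times the lowest, at signals from 35 to 56. Rows with a larger swing, such as miR-21 (15.8 times), lie far off by this measure even with a like order of arrays. The rows named for miR-199 are related and not independent of each other. The signal of miR-199a-3p was 958, 1158 and 1070 on the LW arrays and 779, 1013 and 613 on the EHL arrays. It was lowest on LW array 1 and EHL array 3 within each breed, as were miR-195 and miR-23a, while miR-199a* and miR-199b* were lowest of LW on array 3 and lowest of EHL on array 3.

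Of the related rows, miR-98, a family member whose gene neighbours a let-7f gene, was blank on all 6 arrays, and no row was named let-7b or let-7d. The 5 tested miRNAs from genes beside let-7 genes had a median log2 difference of 0.02, with 3 above and 2 below 0, and limma called 0 of them, with 0 also at an unadjusted p under 0.05. The signal of miR-99b was 276, 142 and 137 on the LW arrays and 142, 319 and 440 on the EHL arrays. EHL arrays 2 and 3 were highest, while EHL array 1 lay within the LW values, and the log2 difference was 0.63 (standard error 0.45, limma adjusted p 0.604). For let-7e, its neighbour, EHL array 3 was the lowest of the 6 arrays, and for miR-99b the highest. The other partners differed by -0.22 (miR-99a), -0.14 (miR-125b), 0.02 (miR-125a) and 0.13 (miR-100) on the log2 scale.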

How the data were processed

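The authors scanned single-colour arrays, subtracted the background, normalized by LOWESS and deposited whole-number intensities, not logarithms, with 1 value for each row of an array or a blank. The study ascribes undetected miRNAs to low fluorescence, with mismatches to the probe or low copy number as possible reasons, and the numeric limit behind a blank is not given in the sources used here. The log2 of each intensity, as deposited, was fitted by limma 3.58.1 in R 4.3.3 (lmFit and eBayes, breed only) over the 109 named rows that had 2 or more values in each breed, and rows with a Benjamini-Hochberg adjusted p under 0.15 were called. The 100 rows with an LRS label were left out of the main test. Exact two-sided permutation tests ran over the 20 labellings of the arrays. Pair ratios, root mean square differences and counts were computed with scipy 1.17.1, pandas 2.3.3 and numpy 2.4.6 under Python 3.11.15. The limma and SAM code was tested on simulated data. SAM was recomputed on the 96 fully listed rows without imputation. Neighbouring genes were taken by distance alone from the Sscrofa11.1 gene table, without strand, and no coordinates are given. The miRNAs named were the members, their cluster partners, genes within 100 kb, the 5 closest courses and cell type markers. Members and lists were chosen with earlier results of these data known. Alternatives were SAM, quantile normalization, median centring, no filter, a filter on rows listed on all arrays, a minimum mean signal of 32, array weights, mean linear signals, a replicate block, a threshold of 0.05 and each array left out in turn. After the data had been seen, a test with the LRS rows and centring on each array's listed rows were added, and array weights and quantile normalization were each run in 2 forms.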

Additional observations from a re-analysis of the deposited data

How the results depend on the processing

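Over all 109 rows, limma called 1 miRNA higher and 0 lower in EHL. SAM called 8 higher and 5 lower, and the replicate block 0 higher and 0 lower, with 8 rows at an unadjusted p under 0.05. The array numbers do not pair the arrays: deviations of same-numbered arrays correlated at -0.50, -0.01 and -0.66 over 96 rows. Array weights were run in 2 forms, and the second was chosen after the counts of the first had been seen. Weights estimated on all 109 rows, blanks included, gave 4 higher and 3 lower, and weights estimated on the 96 fully listed rows gave 15 higher and 7 lower. Quantile normalization was likewise run first over all 236 named rows, with 0 higher and 0 lower, and then over the rows tested, with 1 higher and 1 lower. Centring on each array's listed rows called 0 higher, and adding the LRS rows 1 lower. Leaving out single arrays gave 0 to 15 higher and 0 to 9 lower: 15 and 9 without EHL array 1, 0 higher without LW array 3 or EHL array 2, and 1 lower without LW array 1. The cause of these shifts was not tested.

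Of the let-7 members, limma or SAM called 0 under 18 of 19 alternatives, and leaving out single arrays called 0 to 1, with let-7f called without EHL array 1. The median let-7 difference ranged from -0.54 to -0.24 over the other settings and from -0.54 to 0.03 with single arrays left out. The -0.54 of the other settings came from centring on each array's listed rows, where the median of all rows was -0.25. With single arrays left out, the log2 difference ranged from -0.70 to -0.05 for let-7a, -0.94 to -0.15 for let-7c, -0.087 to 0.58 for let-7e, -1.24 to -0.35 for let-7f, -0.43 to 0.15 for let-7g and -0.35 to 0.20 for let-7i. Over the other settings it ranged from -0.71 to -0.38 for let-7a, -0.86 to -0.51 for let-7c and 0.0025 to 0.42 for let-7e. For let-7f these settings gave -1.20 to -0.80, for let-7g -0.34 to -0.05 and for let-7i -0.50 to -0.08. The lowest let-7i value came from quantile normalization over all named rows. The direction was reversed for let-7e without EHL array 2 (-0.087), for let-7g without LW array 2 (0.15), LW array 3 (0.12) or EHL array 3 (0.12), and for let-7i without LW array 2 (0.08) or EHL array 3 (0.20). The 4 named pair ratios had the same direction in all 7 alternatives run for each, a direction that their choice for not overlapping largely fixes. A blank cell gives no level, and signal over background could not be read from the values.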

Other observations

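Among the 45 LRS rows listed on all 6 arrays, which carry no miRNA name, the 5 closest to the mean course of the let-7 members had root mean square differences of 0.13 (LRS29), 0.15 (LRS52), 0.20 (LRS48), 0.28 (LRS87) and 0.37 (LRS53), where a row with no change between arrays would lie at 0.47. The signal of LRS52 was 932, 1172 and 1478 on the LW arrays and 905, 1156 and 506 on the EHL arrays. It was lowest on LW array 1 and EHL array 3 within each breed, as the 6 members were. What the LRS rows measure was not given in the sources used here.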
